A study of Mus musculus with 6 samples.

Results

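Transcripts of 10 genes of heat shock proteins and cochaperones were followed in differentiating brite adipocytes after knockdown (KD) of the long noncoding RNA *Ctcflos*. The genes were chosen by symbol, as *Hspa1a*, *Hspa1b*, *Hspa8*, *Hspa9*, *Hsp90aa1*, *Hsp90ab1*, *Hspb1*, *Hspd1*, *Hsph1* and *Dnajb1*, and all 10 are among the 52089 symbols of the deposited table. The cells were preadipocytes of inguinal white adipose tissue of 129SvEv mice that had been induced for 2 days and differentiated with rosiglitazone, a PPARγ agonist that drives browning. On day 1 of differentiation they received 50 nM of an LNA Gapmer, a chemically stabilised antisense oligonucleotide, and RNA was harvested 24 h later. The 3 libraries labelled *Ctcflos* KD received a Gapmer against *Ctcflos*, and the 3 control libraries received a nontargeting Gapmer. Strain, tissue, rosiglitazone, transfection and dose are shared by both groups, and the design holds no untransfected cells. The labels do not say whether the libraries of a group come from separate cultures or animals, and p-values therefore measure the spread between these libraries, which may be technical.

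Heat shock proteins are chaperones that bind unfolded or partly folded proteins and help them to reach or keep their structure. HSP70 proteins work in a cycle of ATP hydrolysis, in which DNAJ proteins deliver the client and start hydrolysis and nucleotide exchange factors such as HSP110 release it. HSP90 proteins act later on clients such as kinases and steroid receptors, with a large set of cochaperones. Small heat shock proteins hold unfolded proteins without ATP, and the mitochondrial HSP60 chaperonin and HSP70 fold and import proteins in mitochondria. On heat or proteotoxic stress, the transcription factor HSF1 binds heat shock elements in the promoters of many of these genes and activates them.

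The promoters of members are shown first, since heat shock elements are the sequence feature these genes are known for. RefSeq promoters (GRCm38.p6, 250 bases before to 50 bases after the start site) were at hand for 6 of the 10 members, with 9 start sites in all, and for *Hspe1*, the partner of *Hspd1*. None was at hand for *Hspa8*, *Hspa9*, *Hsp90aa1* or *Hsp90ab1*, so the matches below do not bear on the HSP90 genes. A heat shock element was searched as 3 alternating units, GAANNTTCNNGAA or TTCNNGAANNTTC, and as 2 units, GAANNTTC or TTCNNGAA. Both forms were searched, which covers both strands, and the 3 units contain the 2 units. Of all 32851 promoters in the reference table, 0.603% hold the 3 units and 15.1% hold the 2 units. The stretches below are 60 bases each, lie before the start site and are written 5′ to 3′ on the strand of the gene, with the matching bases in capitals.
Hspe1: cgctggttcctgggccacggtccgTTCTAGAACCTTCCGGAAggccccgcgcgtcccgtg
Hspa1a: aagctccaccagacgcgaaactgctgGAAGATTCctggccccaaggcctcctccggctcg
Hspa1b: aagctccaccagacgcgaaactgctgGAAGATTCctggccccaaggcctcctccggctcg
Hspb1: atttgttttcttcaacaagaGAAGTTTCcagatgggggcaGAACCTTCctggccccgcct
Hsph1: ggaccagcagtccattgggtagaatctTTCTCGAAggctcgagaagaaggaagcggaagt

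The *Hspe1* stretch, at chr1:55088035-55088094 on the plus strand, holds 2 overlapping matches of the 3 units. *Hspd1* and *Hspe1* are transcribed away from each other, and the promoter of the second *Hspd1* start site shares 285 bases with that of *Hspe1*, at chr1:55087898-55088182. The same matches thus lie in the windows of *Hspe1* and of the second *Hspd1* start site. The window of the first *Hspd1* start site has no match of either form. The *Hspa1a* stretch, at chr17:34972227-34972286 on the minus strand, and the *Hspa1b* stretch, at chr17:34959309-34959368 on the minus strand, have the same 60 bases and 1 match of the 2 units. Over all 250 bases before the start site, these promoters differ at 3 bases and are 98.8% identical. The *Hspb1* stretch, at chr5:135887782-135887841 on the plus strand, holds 2 separate matches of the 2 units. The *Hsph1* stretch, at chr5:149636337-149636396 on the minus strand, holds 1 match of the 2 units, and a match of the 3 units lies after the start site. *Dnajb1* has no match in the windows of its 2 start sites. These matches are a description of letters in short windows, and binding was not measured.

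As the check of the labels, *Ctcflos* (1300015D01Rik) had 0.0969, 0.0705 and 0.210 RPKM (reads scaled to transcript length and to library depth) in KD libraries 1 to 3 and 0.748, 0.751 and 0.840 RPKM in control libraries 1 to 3, which leaves 16.1% of the control mean (log2 change −0.66, SE 0.084, adjusted p = 0.025, limma without a filter on low values, where 4.71% of 38335 genes were called). KD library 3 kept the most *Ctcflos* and lay closest to the controls over all genes. Its median absolute log2 difference to control libraries was 0.162 to 0.216, against 0.294 to 0.322 for the other KD libraries. Results are also given without it. This choice rests partly on the expression values under test, and leaving it out raised the share of all genes called from 24.0% to 40.9%. Calls made without KD library 3 are therefore a description and no separate support. The depth recovered from the values was 60.8 to 75.5 mio reads in KD and 62.9 to 79.2 mio reads in control libraries. The summed RPKM of 8 adipocyte markers was 4676 to 6189 in KD and 6350 to 7034 in controls, and that of 7 thermogenic markers 70.6 to 91.9 and 123 to 195 RPKM. Of the 6 tested thermogenic markers, *Ucp1*, *Ppargc1a* and *Elovl3* were lower in KD, as were 1 of 8 adipocyte (*Cebpa*), 1 of 5 preadipocyte (*Pdgfra*) and 1 of 2 mesothelial and epithelial markers (*Lrrn4*). The leukocyte marker *Cd68*, 1 of 2 tested, was higher. Of all 11701 genes tested, 12.4% were called as lower and 11.5% as higher, and 1 of 8 adipocyte markers is near that share. Of the 2 tested smooth muscle and pericyte markers, 0 were called and 0 had an unadjusted p under 0.05 (limma). That unadjusted threshold was passed by 5 of 8 adipocyte, 5 of 6 thermogenic and 1 of 5 preadipocyte markers, called genes included. It was also passed by 1 of 2 leukocyte and 2 of 2 mesothelial and epithelial markers. The share of all genes that passed it is not given here, but such p-values are common in these data. For scale, *Hspa1b*, with an unadjusted p = 0.059, ranked 4847 of 11701 genes by p (limma). All 6 endothelial markers were under 1 RPKM in every library, as were *Ptprc*, *Emr1* and *Itgam* of 7 leukocyte markers and 5 of 7 mesothelial and epithelial markers. Their sums were 0.689 to 1.25 RPKM in KD and 1.33 to 1.74 RPKM in controls for endothelial markers, 7.23 to 16.9 and 9.17 to 28.6 RPKM for leukocyte markers, and 12.2 to 33.8 and 10.9 to 15.1 RPKM for mesothelial and epithelial markers, where the high KD values come from *Krt19* in KD libraries 1 and 2. Preadipocyte markers summed to 196 to 412 RPKM in KD and 293 to 469.5 RPKM in controls, and smooth muscle and pericyte markers to 52.2 to 114 and 78.1 to 201 RPKM. In bulk libraries, fewer cells of a type and less RNA per cell cannot be told apart, and the part of cell composition in the results was not tested.

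HSP90 and the small heat shock protein gene *Hspb1* were higher after *Ctcflos* KD, while no HSP70, chaperonin, HSP110 or DNAJ member passed the test. Genes were tested with limma on log2(RPKM + 1), a scale that understates changes of genes near 1 RPKM, and adjusted over all 11701 genes of mean RPKM at least 1. Of the 10 members, 9 passed this filter on the mean of all 6 libraries, and only *Hspa1a* lay under it. At an adjusted p under 0.05, 3 members were higher in KD (*Hsp90aa1*, *Hsp90ab1* and *Hspb1*) and 0 were lower, also 0 at an unadjusted p under 0.05. For comparison, 24.0% of all genes were called at the adjusted threshold, 11.5% as higher and 12.4% as lower. The same 3 members were the ones whose KD libraries lay above all control libraries, a pattern that 22.9% of all genes showed, while 21.9% lay below. The median log2 change of the 9 members was 0.36, beside 0.028 over all genes and 0.094 over 5581 genes that span less than 30 kb, as all members do. KD library 3 was the lowest of the KD libraries for 7 of the 10 members.

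**Figure D1:**
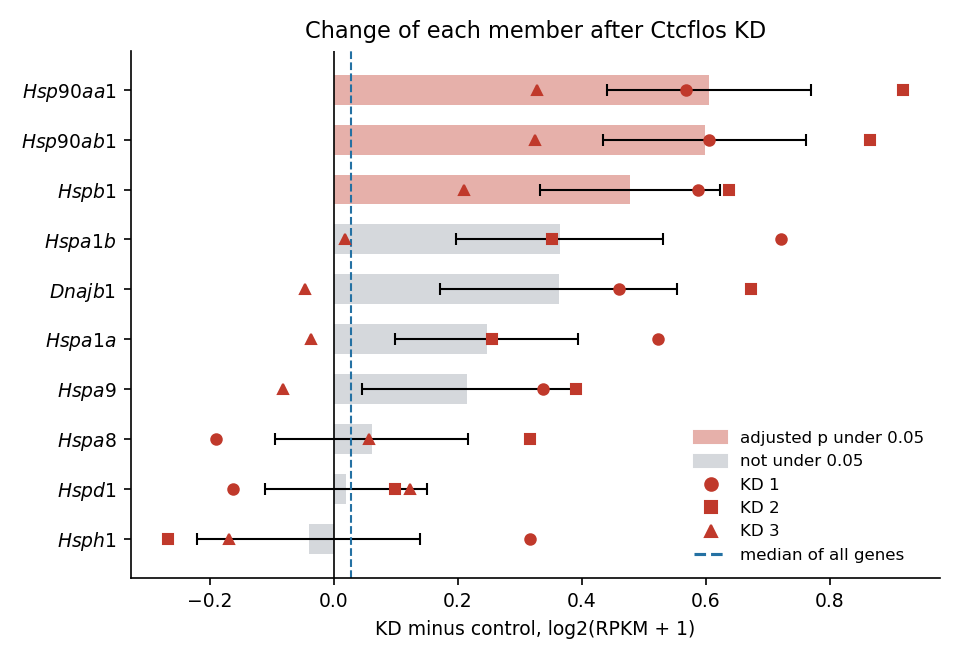
Change of each member as KD minus control on the log2(RPKM + 1) scale, with bars for the fitted change, error bars for its SE and red symbols for each KD library minus the control mean. *Hspa1a* is from the fit without a filter, and the 3 members in red bars are those called, with changes between 0.48 and 0.60.

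*Hsp90aa1* encodes HSP90α, the cytosolic HSP90 that stress induces, and lies at chr12:110690605-110702728 (Gencode vM21, GRCm38). It had 57.2, 73.2 and 48.3 RPKM in KD libraries 1 to 3 and 36.3, 37.8 and 40.7 RPKM in control libraries 1 to 3. Every KD library exceeded every control library, and the mean was 55.5% higher (log2 change 0.60, SE 0.16, adjusted p = 0.034, limma). All 16 accessions of *Hsp90aa1* were called as higher, with log2 changes from 0.57 to 0.77. Overlapping accessions share reads and are not independent.

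*Hsp90ab1* encodes HSP90β, the constitutive cytosolic form, and lies at chr17:45567775-45573271. Its values were 128, 154 and 105 RPKM in KD and 76.5, 86.0 and 90.0 RPKM in control libraries. The groups did not overlap, and the mean was 53.5% higher in KD (log2 change 0.60, SE 0.16, adjusted p = 0.035, limma). All 7 accessions were called as higher, with log2 changes from 0.58 to 0.68. The ratio of *Hsp90aa1* to *Hsp90ab1* RPKM was 0.460 ± 0.015 (SD, n = 3) in KD and 0.456 ± 0.018 in controls and did not differ beyond the spread (exact two-sided permutation test, p = 0.7, adjusted p = 0.8 over 6 ratios, where 3 libraries against 3 cannot go below 0.1). The mitochondrial HSP90 gene *Trap1* lay under the filter, with overlapping groups of 0.792 to 1.07 RPKM in KD and 0.884 to 0.970 RPKM in controls.

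The calls of both HSP90 genes depended on the set of libraries. Without KD library 3 the adjusted p was 0.0065 for *Hsp90aa1* and 0.0073 for *Hsp90ab1* (limma), with log2 changes of 0.74 for both. Without any 1 of the other 5 libraries, the log2 change of *Hsp90aa1* stayed between 0.45 and 0.65 and the adjusted p was 0.077 (KD 1), 0.080 (KD 2), 0.12 (control 1), 0.087 (control 2) or 0.095 (control 3). For *Hsp90ab1* these adjusted p were 0.083, 0.092, 0.14, 0.081 and 0.096 in the same order. Without 1 library fewer genes were called in the whole table too, with 3.62% to 13.9% of all genes in these 5 fits and 40.9% without KD library 3.

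*Hspb1* encodes HSP27 of the small heat shock proteins, which also binds actin filaments, and lies at chr5:135887919-135889563. It had 9.44, 9.81 and 7.04 RPKM in KD and 5.74, 6.84 and 5.35 RPKM in control libraries. The lowest KD value was above the highest control value by little, and the mean was 46.6% higher (log2 change 0.48, SE 0.14, adjusted p = 0.047, limma). Both accessions were called as higher. Without KD library 3 the adjusted p was 0.0057, and without 1 of the other libraries it was between 0.058 (without control 2) and 0.17 (without control 3).

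**Figure D2:**
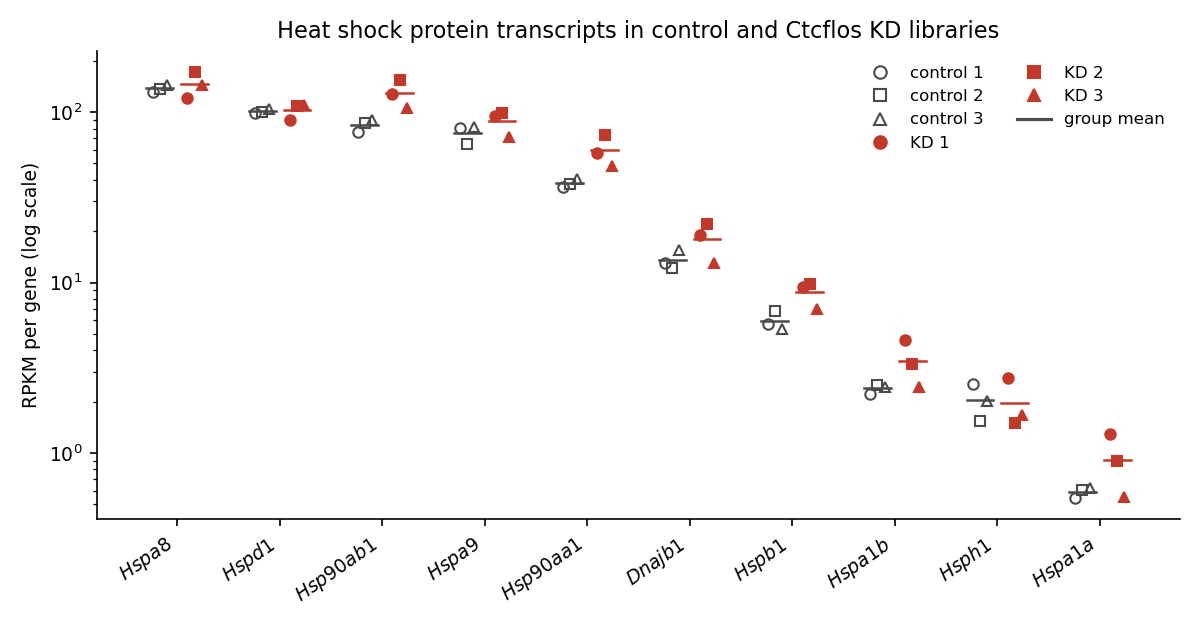
RPKM of the 10 members on a log axis in control libraries (open symbols) and KD libraries (filled symbols), with lines for group means and genes ordered by their control mean. The KD values of *Hsp90ab1*, *Hsp90aa1* and *Hspb1* lie above the control values, while KD library 3 (triangles) lies within the control range for *Hspa9*, *Dnajb1*, *Hspa1b* and *Hspa1a*.

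*Hspa1a* and *Hspa1b* encode the HSP70 that is strongly induced by stress, and stand side by side on chromosome 17, at chr17:34969190-34972156 and chr17:34956436-34959238. *Hspa1b* had 4.59, 3.33 and 2.44 RPKM in KD and 2.23, 2.51 and 2.43 RPKM in control libraries. KD libraries 1 and 2 lay above the controls and KD library 3 within them, and the difference did not pass the test (log2 change 0.36, SE 0.17, adjusted p = 0.14, limma). *Hspa1a*, with a mean under 1 RPKM, had 1.29, 0.900 and 0.552 RPKM in KD and 0.545, 0.610 and 0.623 RPKM in control libraries, so that the KD libraries stood in the same order as for *Hspa1b*, with KD library 3 within the controls. Its log2 change was 0.25 (SE 0.15, adjusted p = 0.37, limma without a filter).

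Reads of these 2 genes are hard to separate, as 38.1% of 150-base windows of the *Hspa1a* transcript also occur in *Hspa1b*, and 40.5% of those of *Hspa1b* in *Hspa1a*. Their summed level was 5.88, 4.23 and 2.99 RPKM in KD and 2.77, 3.12 and 3.06 RPKM in control libraries. The sum thus overlapped between the groups through KD library 3. Without this library, *Hspa1b* was called as higher (log2 change 0.54, adjusted p = 0.012, limma), while *Hspa1a* was not (log2 change 0.39, adjusted p = 0.088, without a filter). Over the 6 fits without 1 library, *Hspa1b* was called in 1. Its log2 change there ranged from 0.19 to 0.54 and its adjusted p reached 0.35 (limma).

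*Hspa8* encodes HSC70, the constitutive HSP70 of the cytosol, and lies at chr9:40800984-40810087. Its gene value was 121, 172 and 143 RPKM in KD and 132, 136 and 145 RPKM in control libraries. KD library 1 was the lowest and KD library 2 the highest of all 6, and the groups overlapped (log2 change 0.06, SE 0.16, adjusted p = 0.79, limma). This value averages accessions of very different level. Of 23 accessions, 6 had 355 to 452 RPKM and 17 had 0.464 to 124 RPKM. One of the 6 is, in Gencode vM21, the processed pseudogene *Gm15459* at chr5:5781615-5783555 on the minus strand, and 61.0% of its 150-base windows occur in the *Hspa8* transcript.

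The 6 high accessions averaged 343, 519 and 440 RPKM in KD and 404, 415 and 443 RPKM in controls. The 17 low accessions averaged 42.0, 49.1 and 38.6 RPKM in KD and 35.9, 38.2 and 39.8 RPKM in controls. In both sets the groups overlapped, and no *Hspa8* accession was called, with log2 changes of 0.0059 to 0.032 in the 6 high accessions and 0.12 to 0.18 in the 13 low accessions that were tested. By the curated RefSeq mRNA alone, *Hspa8* had 45.2, 52.9 and 41.6 RPKM in KD and 38.7, 40.9 and 42.8 RPKM in controls (log2 change 0.18, SE 0.13, adjusted p = 0.31, limma). The level of *Hspa8* relative to other genes therefore depends on the accessions used, and its KD change was not called with either value.

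**Figure D3:**
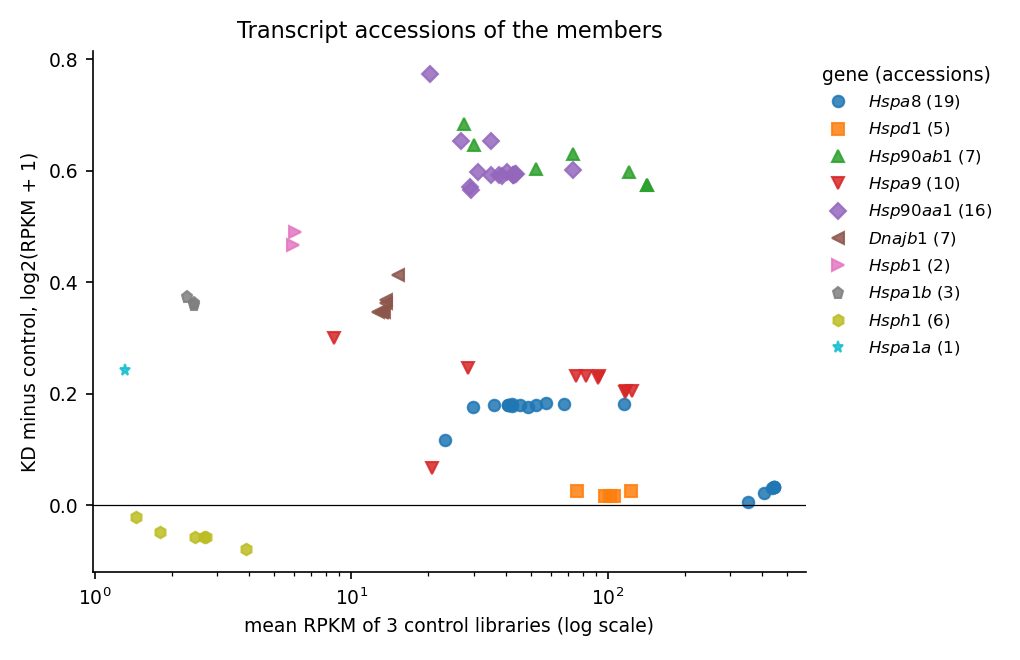
Each symbol is a transcript accession of a member with mean RPKM at least 1, placed by its mean RPKM in controls (log axis) and its KD minus control difference on the log2(RPKM + 1) scale. Accessions of *Hsp90aa1* and *Hsp90ab1* lie between 0.57 and 0.77 at all levels, whereas *Hspa8* accessions form a group near 0.18 and a group at the highest RPKM near 0.

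Of 87 accessions of the members, 76 had a mean RPKM of at least 1 and 25 were called, all as higher in KD. These 25 were every accession of *Hsp90aa1*, *Hsp90ab1* and *Hspb1* and none of other members. Over all 67403 accessions tested, 26.0% were called and 11.3% were higher. The 10 accessions of *Hspa9* had log2 changes from 0.066 to 0.30, and the 7 of *Dnajb1* from 0.35 to 0.41. Within each of these genes, all tested accessions had a change of the same sign.

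The mitochondrial members did not pass the test. *Hspa9*, on chromosome 18, encodes mortalin, the HSP70 that pulls proteins into the mitochondrial matrix, and had 95.5, 99.2 and 71.2 RPKM in KD and 80.4, 65.0 and 81.9 RPKM in control libraries. KD libraries 1 and 2 were above the controls and KD library 3 was not (log2 change 0.22, SE 0.17, adjusted p = 0.37, limma). *Hspd1* encodes HSP60, at chr1:55077835-55088243, and had 90.0, 108 and 110 RPKM in KD and 98.3, 99.7 and 104 RPKM in control libraries. Here KD library 1 was the lowest of all libraries, and the difference was near 0 (log2 change 0.02, SE 0.13, adjusted p = 0.92, limma). *Hspe1*, which encodes HSP10, the lid of the HSP60 ring, had 47.2, 54.9 and 55.8 RPKM in KD and 57.8, 48.3 and 56.6 RPKM in controls (log2 change −0.04, SE 0.13, adjusted p = 0.83, limma). *Hspe1* and the second start site of *Hspd1* share the promoter with overlapping 3-unit matches shown above. The ratio of *Hspd1* to *Hspe1* was 1.95 ± 0.037 (SD, n = 3) in KD and 1.87 ± 0.18 in controls (exact permutation test, p = 0.6, adjusted p = 0.8).

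*Dnajb1* encodes HSP40, the DNAJ protein that pairs with inducible HSP70, at chr8:83608193-83612653. It had 19.0, 22.1 and 13.0 RPKM in KD and 13.0, 12.1 and 15.5 RPKM in control libraries. KD libraries 1 and 2 exceeded all controls and KD library 3 did not (log2 change 0.36, SE 0.19, adjusted p = 0.20, limma). Without KD library 3 *Dnajb1* was called as higher (log2 change 0.57, adjusted p = 0.015, limma). This was 1 of the 6 fits without 1 library, over which its log2 change ranged from 0.21 to 0.57 and its adjusted p reached 0.47. *Hsph1* encodes HSP110, an exchange factor of HSP70, at chr5:149614287-149636376. Its values were 2.74, 1.50 and 1.67 RPKM in KD and 2.55, 1.54 and 2.01 RPKM in control libraries. Library 1 was the highest of both groups, and the groups overlapped almost fully (log2 change −0.04, SE 0.18, adjusted p = 0.89, limma). In all, 5 of the 9 tested members were called without KD library 3, all as higher, in a fit in which 23.3% of all genes were called as higher.

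Ratios between HSP70 and its partners had overlapping groups. *Hspa1a* and *Hspa1b* together came to 0.0314 ± 0.015 (SD, n = 3) of *Hspa8* in KD and 0.0217 ± 0.0011 in controls (exact permutation test, p = 0.4). *Dnajb1* was 0.126 ± 0.033 of *Hspa8* in KD and 0.0983 ± 0.0092 in controls (exact permutation test, p = 0.3). The ratios of *Hspa9* and *Hsph1* to *Hspa8* gave p = 0.6 and p = 0.8 by the same exact test. Adjusted over the 6 ratios, each p was 0.8. All these ratios use the *Hspa8* gene value with its mixed accessions.

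By the mean over all accessions of a gene, *Hspa8* had the highest level per length in control cells with 138 ± 6.7 RPKM (SD, n = 3), followed by *Hspd1* with 101 ± 3.2, *Hsp90ab1* with 84.2 ± 7.0, *Hspa9* with 75.8 ± 9.4 and *Hsp90aa1* with 38.3 ± 2.2. *Dnajb1* with 13.6 ± 1.8, *Hspb1* with 5.98 ± 0.77, *Hspa1b* with 2.39 ± 0.15, *Hsph1* with 2.03 ± 0.51 and *Hspa1a* with 0.593 ± 0.042 RPKM came next. The neighbours *Hsp90ab1* and *Hspa9*, and *Hspa1b* and *Hsph1*, overlapped in their control libraries, and the other neighbours did not. In KD cells, *Hsp90ab1* averaged 129 ± 24 RPKM, between *Hspa8* with 145 ± 26 and *Hspd1* with 103 ± 11, and its libraries overlapped with those of both. The KD libraries of *Hspa9* overlapped with those of *Hspd1* and *Hsp90aa1*, and those of *Hspa1b* with *Hsph1*. The order depends on the accessions used. By the RefSeq mRNA alone, *Hsp90ab1* stood first in controls with 143 ± 9.4 RPKM, followed by *Hspa9* with 117 ± 15, *Hspd1* with 102 ± 2.3, *Hsp90aa1* with 42.8 ± 2.3 and *Hspa8* with 40.8 ± 2.1 RPKM. By the highest accession alone, *Hspa8* was first with 444 ± 21 RPKM and *Hsp90ab1* next with 143 ± 9.4 RPKM.

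The wider chaperone network was described by 9 lists of chaperones and their partners and a list of classical HSF1 targets, which hold 111 genes. Of these, 98 were tested, 20 were higher and 5 were lower in KD, with a median log2 change of 0.18. Without the members, 17 of 89 genes were higher and 5 lower, where all genes gave 11.5% and 12.4%. In each of the 25 called genes, the KD libraries lay all above or all below the control libraries. Of all genes, 44.8% showed such a separation. It is read from the same libraries as the calls and is no separate evidence for them. The lists overlap with each other, and no test of a list against other genes was made. They were chosen with earlier results of these data known, so their counts beside those of all genes are a description only.

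**Figure D4:**
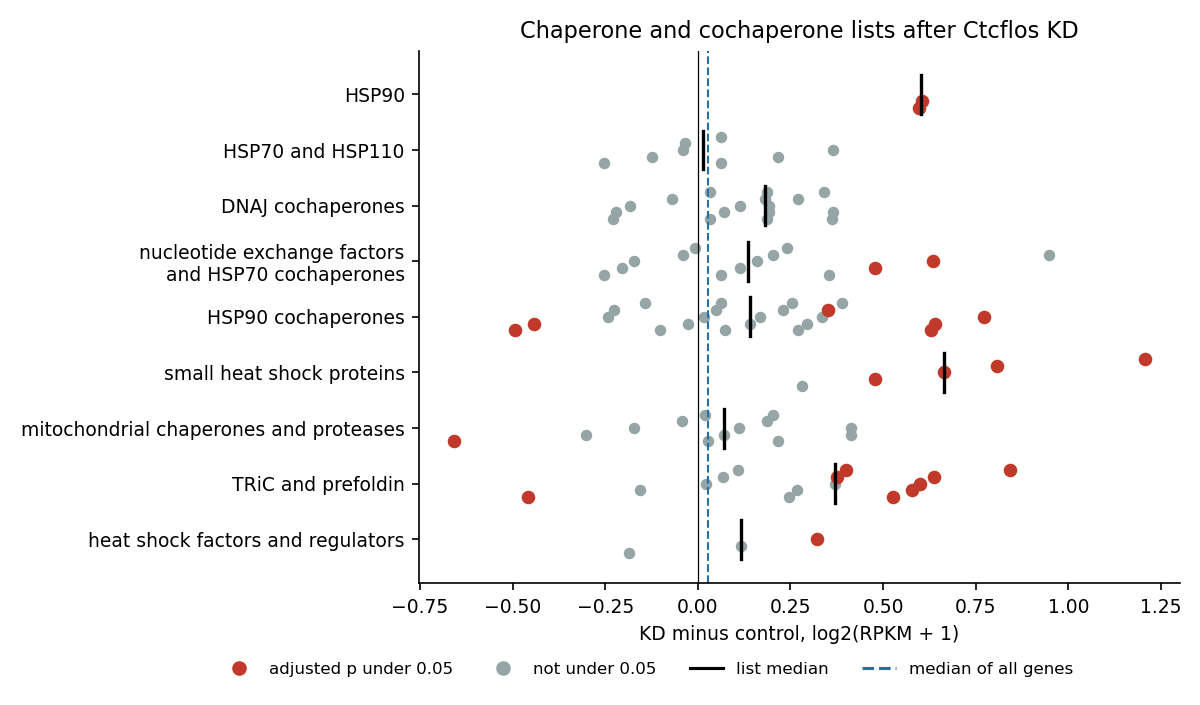
Each dot is a tested gene of 9 chaperone lists, placed by its KD minus control difference on the log2(RPKM + 1) scale, with called genes in red, the list median as a black bar and the median of all genes as a dashed line. The small heat shock proteins have the highest median, 0.66, and the HSP70 and HSP110 genes a median of 0.013.

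The small heat shock proteins had 5 tested genes, of which 4 were higher and 0 lower, at an adjusted and an unadjusted p under 0.05. At the adjusted threshold, 11.5% of all genes were higher and 12.4% lower, and the share at the unadjusted threshold is not given here. The median log2 change of the 5 genes was 0.66. *Cryab*, which encodes αB-crystallin, had 19.6, 20.2 and 9.12 RPKM in KD and 4.86, 7.81 and 5.95 RPKM in control libraries (log2 change 1.21, SE 0.29, adjusted p = 0.022, limma). *Hspb6* had 3.41, 3.91 and 3.23 RPKM in KD and 1.63, 1.87 and 2.05 RPKM in controls (log2 change 0.66, SE 0.10, adjusted p = 0.0074, limma). Of the 3 called genes other than *Hspb1*, *Hspb6* was the one called without each of the 6 libraries in turn, with an adjusted p of at most 0.047. The call of *Cryab* was lost without KD library 1 or 2 (adjusted p = 0.072 and 0.078) or control library 1 or 3 (0.093 and 0.084). *Hspb2*, the neighbour of *Cryab* in the genome, had 2.28, 2.70 and 1.66 RPKM in KD and 0.666, 1.18 and 0.654 RPKM in controls (log2 change 0.81, SE 0.16, adjusted p = 0.013, limma), and it lost its call without control library 1 or 3 (adjusted p = 0.064 and 0.065). The muscle-related *Hspb6*, *Hspb2* and *Cryab* are also expressed in contractile cells, and the sums of smooth muscle and pericyte markers are given above.

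Among 23 tested HSP90 cochaperones, 4 were higher and 2 were lower, beside 11.5% and 12.4% of all genes. The median log2 change of the list was 0.14. *Ppid*, a cyclophilin that binds HSP90, had 5.28, 5.26 and 5.18 RPKM in KD and 2.77, 3.23 and 3.02 RPKM in control libraries (log2 change 0.64, SE 0.090, adjusted p = 0.0057, limma). It was called without each of the 6 libraries in turn, with an adjusted p of at most 0.044. *Ptges3*, which encodes p23, the cochaperone that holds HSP90 in its closed state, had 40.1, 46.0 and 34.4 RPKM in KD and 23.1, 22.5 and 23.3 RPKM in controls (log2 change 0.77, SE 0.13, adjusted p = 0.0093, limma). *Cacybp* and *Chordc1* were also higher, with log2 changes of 0.63 and 0.35. *Cdc37l1*, related to the kinase cochaperone gene *Cdc37*, fell from 4.60 ± 0.095 to 3.00 ± 0.54 RPKM (SD, n = 3, log2 change −0.49, adjusted p = 0.020, limma), and *Fkbp8*, an immunophilin of the mitochondrial outer membrane, from 19.9 ± 2.8 to 14.3 ± 0.56 RPKM (log2 change −0.44, adjusted p = 0.039, limma). *Ptges3* lost its call without control library 1 or 3 (adjusted p = 0.053 and 0.052), and *Fkbp8* without these or KD library 1 or 2 (0.082 to 0.16). *Cacybp*, *Chordc1* and *Cdc37l1* lost it without any 1 library but KD library 3 (0.056 to 0.13).

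The TRiC chaperonin is a ring of 8 different subunits that folds actin and tubulin, and the prefoldin complex feeds it. Together they had 15 tested genes, of which 7 were higher and 1 was lower, beside 11.5% and 12.4% of all genes. The median log2 change was 0.37. *Cct6a* had 36.0, 38.9 and 32.7 RPKM in KD and 21.7, 23.8 and 22.5 RPKM in control libraries (log2 change 0.64, SE 0.12, adjusted p = 0.011, limma). *Cct2* and *Cct3* were higher with log2 changes of 0.58 and 0.84. *Cct4* was the gene that fell, with 8.39, 8.62 and 10.7 RPKM in KD and 12.4, 12.9 and 13.9 RPKM in controls (log2 change −0.46, SE 0.12, adjusted p = 0.031, limma).

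The other ring subunits were looked at after these values were seen. Of the 8 subunits, 5 were higher and 1 was lower, beside 11.5% and 12.4% of all genes. In 7 of 8 every KD library lay above every control library, as in 22.9% of all genes. *Cct5* and *Cct8* were higher by 0.53 and 0.60 on the log2 scale, and *Tcp1* and *Cct7*, with log2 changes of 0.37 and 0.27, did not pass the test (adjusted p = 0.059 and 0.13, limma). For *Cct4*, all 13 tested accessions had a negative log2 change and 8 were called as lower. The RefSeq mRNA of *Cct4* alone gave a log2 change of −0.45 (adjusted p = 0.025, limma). Its highest accession alone gave a log2 change of −0.47, which did not pass the test (adjusted p = 0.067, limma), and the groups overlapped there, with 21.3 to 30.93 RPKM in KD and 30.90 to 36.9 RPKM in controls. TRiC is assembled with each subunit once per ring, and the transcript of 1 subunit here moved in the opposite direction to 5 others. The list had 0 called genes without control library 1 or 3, where 3.71% and 3.62% of all genes were called. It had 1 without KD library 1 or 2, where 9.96% and 9.25% of all genes were called. It had 4 without control library 2 (13.9% of all genes) and 10 without KD library 3 (40.9% of all genes).

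**Figure D5:**
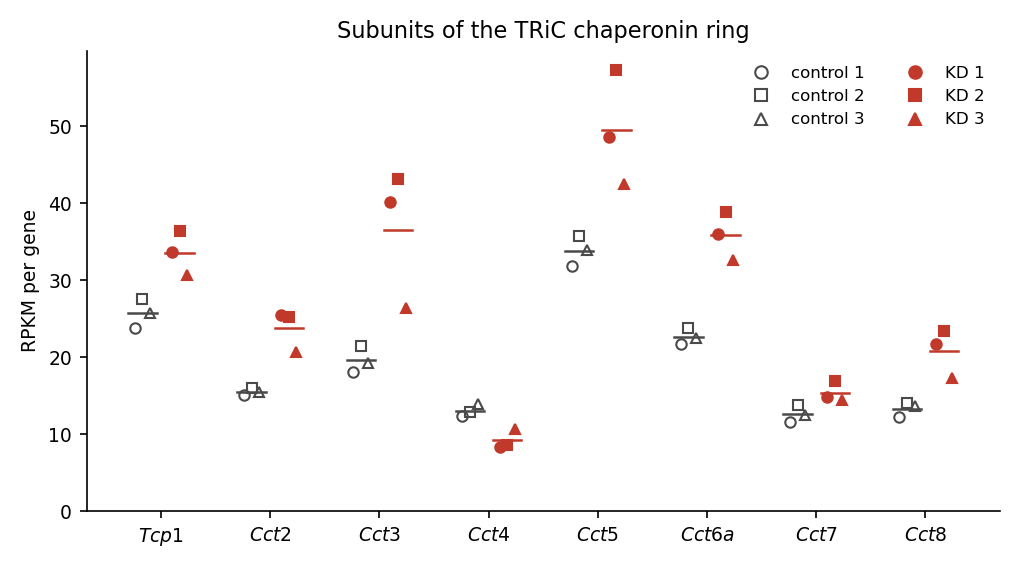
RPKM of the 8 TRiC ring subunits in control libraries (open symbols) and KD libraries (filled symbols), with lines for group means and the axis starting at 0. In *Cct4* the KD libraries lie below the controls, at 8.39 to 10.7 against 12.4 to 13.9 RPKM, and in the other 7 subunits they lie above.

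Of 14 tested nucleotide exchange factors and HSP70 cochaperones, 2 were higher and 0 lower, with 1 lower at an unadjusted p under 0.05. At the adjusted threshold, 11.5% of all genes were higher and 12.4% lower. *Hspbp1*, an exchange factor of HSP70, had 5.09, 5.73 and 5.08 RPKM in KD and 3.83, 3.24 and 3.50 RPKM in control libraries (log2 change 0.48, SE 0.099, adjusted p = 0.016, limma). *Bag2*, which inhibits the ubiquitin ligase CHIP, had 8.65, 10.01 and 5.92 RPKM in KD and 4.81, 4.68 and 4.96 RPKM in controls (log2 change 0.63, SE 0.17, adjusted p = 0.030, limma). *Hspbp1* lost its call without KD library 2, control library 1 or control library 3 (adjusted p = 0.052 to 0.074), and *Bag2* without any 1 library but KD library 3 (0.084 to 0.10). Of 17 tested DNAJ genes, 0 were called in either direction with limma, with 2 higher and 0 lower at an unadjusted p under 0.05. The list median was 0.18. Of 8 tested HSP70 and HSP110 genes, 0 were called either, with 0 higher and 1 lower at an unadjusted p under 0.05.

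Of 13 tested mitochondrial chaperones and proteases, 0 were higher and 1 was lower with limma, beside 11.5% and 12.4% of all genes. An unadjusted p under 0.05, which is common among all genes, gave 1 higher and 2 lower in this list. The gene that fell was *Yme1l1*, a protease of the inner membrane, with 5.97, 6.46 and 9.60 RPKM in KD and 13.7, 10.9 and 11.4 RPKM in control libraries (log2 change −0.66, SE 0.17, adjusted p = 0.030). Among 3 tested heat shock factors and regulators, *Hsf2* was higher, with 2.35 ± 0.25 RPKM in KD and 1.68 ± 0.11 RPKM in controls (SD, n = 3, log2 change 0.32, adjusted p = 0.044, limma), and *Hsf1*, the main factor of the heat shock response, was at 1.23 ± 0.25 and 1.53 ± 0.040 RPKM (log2 change −0.19, adjusted p = 0.225). *Yme1l1* and *Hsf2* both lost their calls without any 1 library but KD library 3, with adjusted p of 0.059 to 0.12 and 0.088 to 0.14.

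Of 26 tested classical HSF1 targets, 7 were higher and 1 was lower in KD, beside 11.5% and 12.4% of all genes. The median log2 change of the list was 0.29. The 7 genes are *Hsp90aa1*, *Hsp90ab1*, *Hspb1*, *Cryab*, *Cacybp*, *Chordc1* and *Hsf2*, which are counted in other lists too. *Serpinh1*, which encodes HSP47, the collagen chaperone of the endoplasmic reticulum, was the gene that fell, with 309, 381 and 351 RPKM in KD and 430, 504 and 506 RPKM in control libraries (log2 change −0.47, SE 0.14, adjusted p = 0.048, limma). It lost its call without each of the 6 libraries in turn, with adjusted p between 0.052 and 0.18. Over the whole list, 15 genes were called without KD library 3 and 1 without control library 2, where 40.9% and 13.9% of all genes were called. The list had 0 called genes without KD library 1, KD library 2, control library 1 or control library 3. In these fits 3.62% to 9.96% of all genes were called.

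Of all genes tested, those whose 6 log2 values, centred on their mean, lay closest to *Hsp90aa1* were *Rbm17* (root mean square distance 0.0155), *Bambi* (0.035) and *Rpl13a* (0.036). *Rbm17* encodes a splicing factor, *Bambi* a decoy receptor of TGFβ signalling and *Rpl13a* a ribosomal protein. Among members, *Hsp90ab1* was nearest, with a distance of 0.041, and *Dnajb1* and *Hspb1* followed with 0.159 and 0.160. *Rbm17* had 7.93, 10.6 and 6.78 RPKM in KD and 4.88, 5.12 and 5.62 RPKM in control libraries, the order of libraries seen in *Hsp90aa1*. The calls of these 3 genes were lost without any 1 library but KD library 3 (adjusted p = 0.064 to 0.13, limma). This likeness is a description over 6 libraries.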

How the data were processed

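The authors deposited 1 table of RPKM values, without counts, in which each line is an accession of a RefSeq, Ensembl or GenBank transcript. Its decimal commas were read as points. How it was made is not given in the sources used here. Of 168326 lines, 305 exact repeats were removed. For a gene, the RPKM of its accessions were averaged. A fold change here is the KD minus control difference on the log2(RPKM + 1) scale, from limma-trend (limma 3.58.1, R 4.3.3) over 11701 genes or 67403 accessions of mean RPKM at least 1, with Benjamini-Hochberg adjustment over all of them. *Hspa1a* and *Ctcflos*, under this filter, come from the fit of 38335 genes without it. For ratios, the two-sided exact permutation test was used. Depth was recovered from low values, of which 93.9% to 94.2% fell on whole reads within 0.05. Libraries were stranded, but the counting is not stated to use strand. The fit was tested on simulated data.

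The members and lists were chosen with earlier results of these data known. Named are all members, *Ctcflos*, *Hspe1*, from each list up to 3 increased and 3 decreased called genes of smallest adjusted p without overlap, and the 3 genes most like the member of smallest p. Others are given as chosen after their values were seen, or to complete a list: *Cct5*, *Cct8*, *Tcp1*, *Cct7*, *Trap1*, *Hsf1*. Promoters are RefSeq's, and protein sequences were not used here. Alternatives were a pseudocount of 0.1, no filter, median-of-ratios scaling, a block for the replicate number, RefSeq accessions alone, the highest accession alone, no trend in the prior variance and leaving out each library.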

Additional observations from a re-analysis of the deposited data

How the results depend on the processing

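The count of 3 called members was 3 with a pseudocount of 0.1, scaling by the median of ratios, RefSeq accessions or the highest accession alone and no trend in the prior variance. It was 0 with no filter on low values, where 38335 genes are adjusted for and 4.71% of them were called. It was 0 to 5 without 1 library. With the replicate number as a block it was also 0. In the fits with no filter and with the block, 3 members had an unadjusted p under 0.05. The share of all genes under that p in these fits is not given here, so this count is no result about the members. In the block fit 14.3% of all genes were called, 6.38% as higher. Without 1 library, between 3.62% and 40.9% of all genes were called. Whether same-numbered libraries form pairs is not known. Their deviations from the group means correlated with 0.29, −0.29 and −0.42 over 11701 genes. This cannot decide the question, since libraries of different number were not compared in this way. Of the listed genes 25 were called, 9 with no filter, 12 with the block and 2 to 44 without 1 library. Of the member accessions 25 were called, 3 with no filter, 4 with the block and 0 to 38 without 1 library. The shares of all accessions called in these alternative fits are not given here. The log2 change of *Ctcflos* was −0.66 with the block (adjusted p = 0.11, limma) and −0.72 to −0.63 without 1 library (adjusted p = 0.012 to 0.15).

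The sign changed where the difference was near 0. The log2 change of *Hspd1* was −0.0099 with scaling by the median of ratios. Without 1 library it ranged from −0.032 to 0.11 for *Hspd1*, −0.066 to 0.19 for *Hspa8*, −0.22 to 0.081 for *Hsph1* and −0.12 to 0.032 for *Hspe1*. The log2 ratio of KD to control ranged from −0.012 to 0.044 for *Hsp90aa1* to *Hsp90ab1*, −0.0025 to 0.14 for *Hspd1* to *Hspe1*, −0.032 to 0.30 for *Hspa9* to *Hspa8* and −0.52 to 0.17 for *Hsph1* to *Hspa8*. Of 415 values of single genes under the alternatives, 277 kept their direction and side of the threshold, 127 lost and 2 gained their call. The cause of these changes was not tested.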

Other observations

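Some genes of the lists that did not pass the test had KD libraries far apart from each other. *Bag3*, the exchange factor that links HSP70 to selective autophagy, had 26.4, 10.4 and 9.01 RPKM in KD libraries 1 to 3 and 7.50, 5.66 and 6.70 RPKM in control libraries (log2 change 0.95, SE 0.34, adjusted p = 0.078, limma). KD library 1 was also the highest library for *Hspa1a* and *Hspa1b*. *Sqstm1*, which encodes the autophagy receptor p62, had 176, 183 and 89.7 RPKM in KD and 81.1, 76.4 and 94.5 RPKM in controls (log2 change 0.76, SE 0.27, adjusted p = 0.072, limma), so that KD library 3 lay within the controls. These genes were chosen after their values were seen.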
